A study of Homo sapiens with 6 samples.

Results

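The genes described here are LIN28A and LIN28B, 5 genes known as let-7 targets (HMGA1, HMGA2, IGF2BP1, IGF2BP2 and IGF2BP3), and the microRNA-processing genes DICER1, DROSHA and DGCR8. They were chosen by symbol, and a probe set (the group of array probes that gives 1 value) was used only where it was annotated to 1 of these symbols and to no other gene. Of the 10 genes, 9 were measured by 29 such probe sets, out of 19775 genes measured on the array. The 4 probe sets for DGCR8 are shared with MIR1306, a microRNA gene inside it, so DGCR8 is not analysed here.

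All 6 samples came from H9, a long-established human embryonic stem cell (hESC) line. One group of 3 arrays carried RNA of undifferentiated H9 cells, whose culture medium is not given in the sources used here. The other 3 arrays carried RNA of mesodermal progenitors, induced from H9 with the growth factors BMP4, VEGF, activin A and FGF2 in Stemline II medium. On day 3.5 these cells were sorted for CD56 (NCAM1) on their surface and against CD326 (EPCAM). No unsorted cells of that day were measured, so the sort and the differentiation cannot be told apart. Whether the 3 arrays of a group stand for separate cultures is not stated. The p-values therefore reflect just the scatter among these arrays, which could be technical.

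LIN28A and LIN28B are RNA-binding proteins with a cold shock domain and a pair of zinc knuckles. They bind precursors of the let-7 microRNAs and block their maturation, and they keep let-7 low in pluripotent cells. Mature let-7 pairs with messenger RNAs through its seed, the bases near its 5′ end, and lowers them. HMGA2, the IGF2BP genes, DICER1 and the LIN28 genes themselves are among its known targets. DROSHA with its partner DGCR8 cuts the primary transcript in the nucleus, and DICER1 cuts the precursor in the cytoplasm. Small RNAs are not measured by this kind of array, so the level of let-7 itself is not analysed here.

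The sequences at the centre of this pathway are shown first, because let-7 pairs with its targets through the seed. The genes named as let-7 targets here were listed by symbol, and their sequences were not searched for seed sites. They are taken from RefSeq on GRCh38.p14. The 12 let-7 family hairpins give 9 different mature 5p sequences of 22 bases, and all 12 share 1 seed. Capitals mark the seed, bases 2 to 8, in the most widely placed form, let-7a, which comes from 3 loci, and in forms that differ from it outside the seed:
let-7a-5p: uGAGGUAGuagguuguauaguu
let-7b-5p: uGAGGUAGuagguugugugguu
let-7c-5p: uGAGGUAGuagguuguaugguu
let-7g-5p: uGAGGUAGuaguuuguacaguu
miR-98-5p: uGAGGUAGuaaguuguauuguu

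The zinc knuckles of LIN28 are known to bind GGAG in the let-7 precursor. These 4 letters were searched on the RNA strand between the 5p arm and the 3p arm, or up to the hairpin's 3′ end for let-7f-2, for which no 3p arm was listed. They were present in 9 of the 12 family hairpins and in 52 of 728 other human hairpins with both arms listed (7.14%). Hairpins are shown for let-7 genes that lie inside a longer gene measured on the array, with GGAG in capitals where present. The hairpin of miR-98, which also lies inside such a gene (HUWE1), is not shown. A match is a description of the letters and not a measured binding site.
let-7g: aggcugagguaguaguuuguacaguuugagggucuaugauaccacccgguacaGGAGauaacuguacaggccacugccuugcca
let-7a-2: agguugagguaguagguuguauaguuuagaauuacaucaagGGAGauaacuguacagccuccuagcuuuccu
let-7c: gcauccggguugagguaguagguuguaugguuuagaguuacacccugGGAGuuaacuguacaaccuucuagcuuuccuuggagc
let-7e: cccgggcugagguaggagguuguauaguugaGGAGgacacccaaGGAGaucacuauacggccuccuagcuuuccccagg
let-7f-2: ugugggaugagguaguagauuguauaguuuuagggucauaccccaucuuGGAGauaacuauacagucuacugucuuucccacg
let-7a-3: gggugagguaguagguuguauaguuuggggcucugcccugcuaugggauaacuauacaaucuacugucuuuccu
let-7b: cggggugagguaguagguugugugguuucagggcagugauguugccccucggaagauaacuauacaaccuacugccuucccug
The let-7a-3 and let-7b hairpins, at chr22:46112749-46112822 and chr22:46113686-46113768 on the plus strand, are 2 of the 3 without GGAG between the arms, and the third is miR-98. Both lie within MIRLET7BHG, whose level is given below with those of the other long transcripts.

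The deposited values are intensities on a linear scale. For tests they were turned into log2(intensity + 16) and quantile-normalized, and a log2 change is the progenitor mean minus the hESC mean on that scale. It understates the change of dim genes. A gene was represented by its brightest probe set and called at an adjusted p under 0.05 (limma, Benjamini-Hochberg over all 19775 genes). At this threshold 47.9% of all genes were called, 26.7% higher and 21.2% lower in the progenitors, so a call alone does not set a gene apart. The arrays' medians of deposited intensity were 33.11 to 36.11 for hESC and 30.98 to 31.24 for progenitors. Of the surface antigens used for the sort, NCAM1 rose by 3.46 and EPCAM fell, at a log2 change of -2.33. All 7 measured pluripotency markers were lower and all 8 mesoderm markers were higher in the progenitors.

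Of the 9 measured genes, LIN28B rose, LIN28A, IGF2BP3 and DICER1 fell, and HMGA1, HMGA2, IGF2BP1, IGF2BP2 and DROSHA did not pass the test. That is 1 gene higher and 3 lower of 9, against 26.7% and 21.2% of all genes. With scaling on hybridization controls, LIN28A and IGF2BP3 had the opposite sign and DICER1 was not called. The groups of arrays did not overlap for 6 of the 9 genes, as for 57.3% of all genes. The changes were modest, from -0.54 for DICER1 to 0.49 for LIN28B. The median absolute change was 0.19 over the 9 genes and 0.32 over all genes tested. NANOG, a core pluripotency factor measured on the same arrays, changed by -4.17. In such bulk samples, fewer cells of a type and less RNA per cell cannot be told apart.

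**Figure D1:**
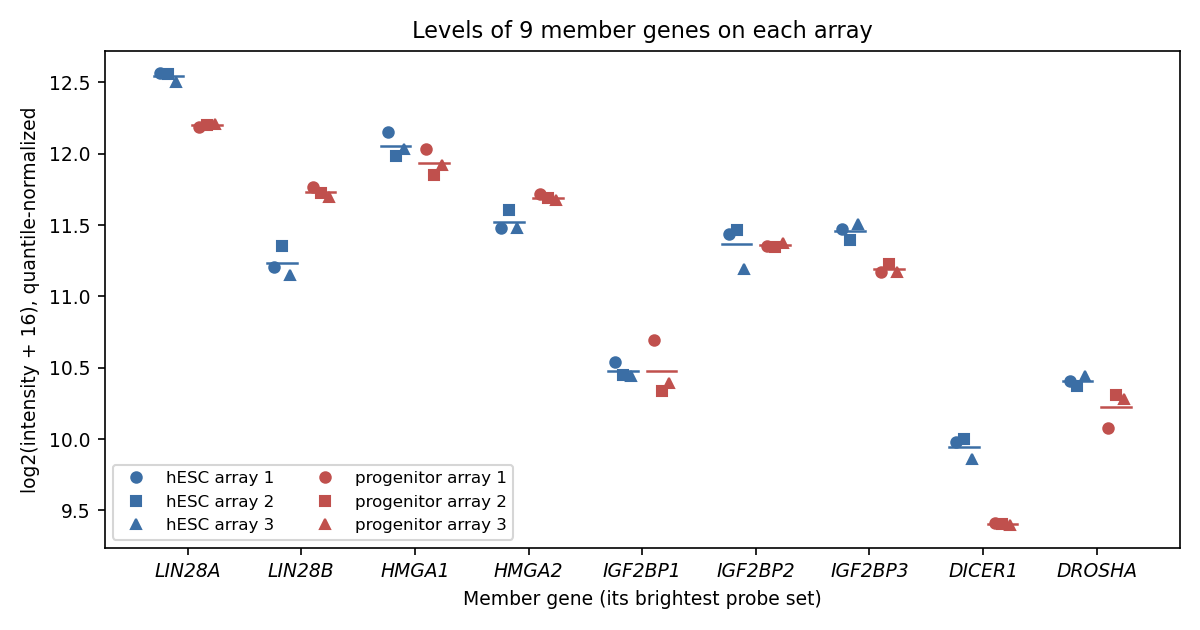
Level of each measured gene on each of the 6 arrays, as log2(intensity + 16) after quantile normalization, with hESC in blue, progenitors in red and a line at each group's mean. The groups are apart for LIN28A, LIN28B, IGF2BP3 and DICER1, and they overlap for HMGA1, IGF2BP1 and IGF2BP2; levels of different genes are not comparable.

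LIN28A, the form best known from pluripotent stem cells, had intensities of 6022, 6005 and 5812 on the hESC arrays and 4621, 4652 and 4674 on the progenitor arrays. The 3 hESC arrays lay above all progenitor arrays, and the progenitor values were close together. On the log2 scale it was at 12.54 ± 0.03 (SD, n = 3) in hESC and 12.20 ± 0.01 in the progenitors. The log2 change was -0.34 (SE 0.07, adjusted p = 0.00695 with limma), so hESC had 1.27 times the progenitor level. On the same arrays the mean intensity of NANOG was 2732 in hESC and 133 in the progenitors.

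LIN28B, its paralogue, went the other way. Its intensities were 2425, 2737 and 2248 on the hESC arrays and 3440, 3284 and 3239 on the progenitor arrays. All progenitor arrays were above all hESC arrays. The log2 level was 11.24 ± 0.10 (SD, n = 3) in hESC and 11.73 ± 0.04 in the progenitors, a change of 0.49 (SE 0.09, adjusted p = 0.00255 with limma), or 1.41-fold.

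Each LIN28 gene had 1 probe set, so neither change could be compared with a second one of the same gene. Their ratio can be read within each array, where scaling between arrays has no part. The log2 ratio of LIN28B to LIN28A was -0.43, -0.50 and -0.53 on the progenitor arrays and -1.31, -1.13 and -1.37 on the hESC arrays. The ratio was higher on every progenitor array than on every hESC array, by 0.79 on average. An exact permutation test, two-sided, gave p = 0.1, the smallest that 3 arrays against 3 allow. This was 1 of 5 such pairs, chosen after their values were seen, and with adjustment over the 5 pairs p was also 0.1. A ratio of this kind shows unequal change and no absolute level of either gene.

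By the rule of smallest mean absolute log2 difference over the 6 arrays, among 9887 genes above the median level, HLA-C (0.014), ARFGEF2 (0.015) and DENR (0.018) had the pattern most like that of LIN28A. HLA-C encodes a class I antigen-presenting molecule, ARFGEF2 an exchange factor of vesicle transport and DENR a translation factor. For LIN28B the nearest genes were DCTN2 (0.015), a dynactin subunit, ZFX (0.028), a zinc finger transcription factor, and ANKS1A (0.029). Each was compared relative to its own hESC mean. With so few arrays, this rule mainly picks genes with a change of like size. The changes were -0.33, -0.31 and -0.36 for HLA-C, ARFGEF2 and DENR, and 0.49, 0.49 and 0.53 for DCTN2, ZFX and ANKS1A. Of all genes, 20.9% fell at least as much as LIN28A and 20.2% rose at least as much as LIN28B. A near match therefore does not set a gene apart, and shared control was not tested.

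HMGA1 and HMGA2 encode AT-hook proteins that bend DNA and shape chromatin in embryonic and tumour cells. HMGA1 had intensities of 4578, 4154 and 4199 in hESC and 4144, 3596 and 3791 in the progenitors. The groups overlapped after normalization. Its change of -0.12 (95% interval -0.34 to 0.09) did not pass (adjusted p = 0.322 with limma), and a second, dimmer probe set gave -0.17 without passing. HMGA1 was called lower with array weights (-0.22, adjusted p = 0.0164) and with centring on the gene median (-0.31), and higher with hybridization-control scaling (0.36).

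HMGA2, the textbook let-7 target, was bright in both groups, with intensities of 2911, 3230 and 2845 in hESC and 3304, 3228 and 3193 in the progenitors. On the deposited scale hESC array 2 lay inside the progenitor range, while the normalized groups did not overlap. The change of 0.17 (95% interval -0.02 to 0.36) did not pass (adjusted p = 0.122 with limma). It passed with a pseudocount of 64 (adjusted p = 0.0350), with trend and robust variance settings (0.0201) and with array weights (0.0144). With centring on the gene median it was at -0.03. Within arrays, HMGA2 relative to HMGA1 was higher by 0.28 in the progenitors, without overlap (exact permutation p = 0.1, and 0.1 over the 5 pairs).

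The other 8 HMGA2 probe sets were far dimmer, with group means of at most 102. The brightest of these had intensities of 82.8, 132 and 91.2 in hESC and 27.4, 45.1 and 34.0 in the progenitors. It fell, with a change of -1.12 (SE 0.19, adjusted p = 0.00260 with limma over all probe sets). Another fell by 0.96, from a mean of 52.2 to 16.7. A pair of others rose, by 0.44 and 0.38, both below a mean of 50. Of the 9 HMGA2 probe sets 2 were higher, 2 lower and 5 not past the test, the bright one among the last. With centring on the gene median none was called higher and 2 were called lower, the same that fell here. Which transcript forms the dim probe sets detect is not given in the sources used here.

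The IGF2BP proteins bind and stabilise messenger RNAs in embryonic cells, among them that of IGF2. IGF2BP1 had intensities of 1535, 1452 and 1367 in hESC and 1617, 1241 and 1285 in the progenitors. The progenitor arrays spanned the whole hESC range. The change was 0.00 (-0.0016, 95% interval -0.27 to 0.26, adjusted p = 0.994 with limma), and the gene's other 2 probe sets did not pass either, at -0.14 and -0.04. IGF2BP2 had intensities of 2841, 2965 and 2310 in hESC and 2548, 2503 and 2546 in the progenitors. The groups overlapped, with a change of -0.01 (95% interval -0.24 to 0.22). With hybridization-control scaling both were called higher, at 0.44.

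IGF2BP3 was the family member that passed. Its brightest probe set had intensities of 2896, 2822 and 2881 in hESC and 2247, 2321 and 2230 in the progenitors. All hESC arrays were above all progenitor arrays, and the change was -0.27 (SE 0.08, adjusted p = 0.0250 with limma). The call was weak. It was lost without hESC array 1 (-0.26, adjusted p = 0.0699) or 3 (-0.24, adjusted p = 0.0536). It was also lost without progenitor array 1 (-0.26, adjusted p = 0.0501), 2 (-0.29, adjusted p = 0.0642) or 3 (-0.26, adjusted p = 0.0935). With progenitor arrays 2 and 3, the closest pair, averaged and used as 1 array, the adjusted p was 0.0762. A second bright probe set had means of 2170 in hESC and 2038 in the progenitors and a change of -0.01 (adjusted p = 0.922). Its log2 ratio to the brightest one was higher by 0.25 on progenitor arrays, without overlap (exact permutation p = 0.1, and 0.1 over the 5 pairs).

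DICER1, the cytoplasmic nuclease that releases the microRNA duplex, had the largest absolute change of the 9 genes under quantile normalization, but the smallest with hybridization-control scaling (-0.07). Its brightest probe set had intensities of 1014, 1046 and 914 in hESC and 665, 648 and 649 in the progenitors. The groups were well apart, at 9.95 ± 0.08 (SD, n = 3) and 9.40 ± 0.01 on the log2 scale. The change was -0.54 (SE 0.08, adjusted p = 0.00107 with limma), so hESC had 1.46 times the progenitor level. The call held without each array in turn.

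Another DICER1 probe set moved in the opposite direction. This dimmer one had intensities of 60.9, 76.5 and 97.2 in hESC and 163, 116 and 118 in the progenitors, all progenitor arrays higher. It rose by 0.69 (SE 0.19, adjusted p = 0.0225 with limma over all probe sets). Within arrays, the log2 ratio of this probe set to the bright one was higher in the progenitors by 1.37, without overlap (exact permutation p = 0.1, two-sided, the smallest possible, and 0.1 over the 5 pairs). Of the 6 DICER1 probe sets 2 were higher, 2 lower and 2 did not pass (3 higher and 0 lower with hybridization-control scaling, 1 and 2 with centring on the gene median), and 3 of them had mean intensities of at most 16.9. On the mean of all 6, DICER1 did not pass and its sign turned (0.09, adjusted p = 0.458). The array's 3′ to 5′ log2 difference for actin controls was 0.55 to 1.09 on hESC arrays and 0.42 to 0.52 on progenitor arrays (exact permutation p = 0.1), and that of GAPDH controls overlapped (p = 0.3). Whether RNA integrity has a part in the disagreement of the DICER1 probe sets was not tested.

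DROSHA, the nuclear nuclease, had 1 probe set, with intensities of 1392, 1377 and 1369 in hESC and 1053, 1217 and 1195 in the progenitors. All hESC arrays were above all progenitor arrays, but progenitor array 1 stood lower than the other 2. The change of -0.19 (95% interval -0.40 to 0.03) did not pass (adjusted p = 0.146 with limma). It passed without normalization between arrays (-0.26, adjusted p = 0.0444). DROSHA relative to DICER1 was higher by 0.34 in the progenitors within arrays, without overlap (exact permutation p = 0.1, and 0.1 over the 5 pairs).

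**Figure D2:**
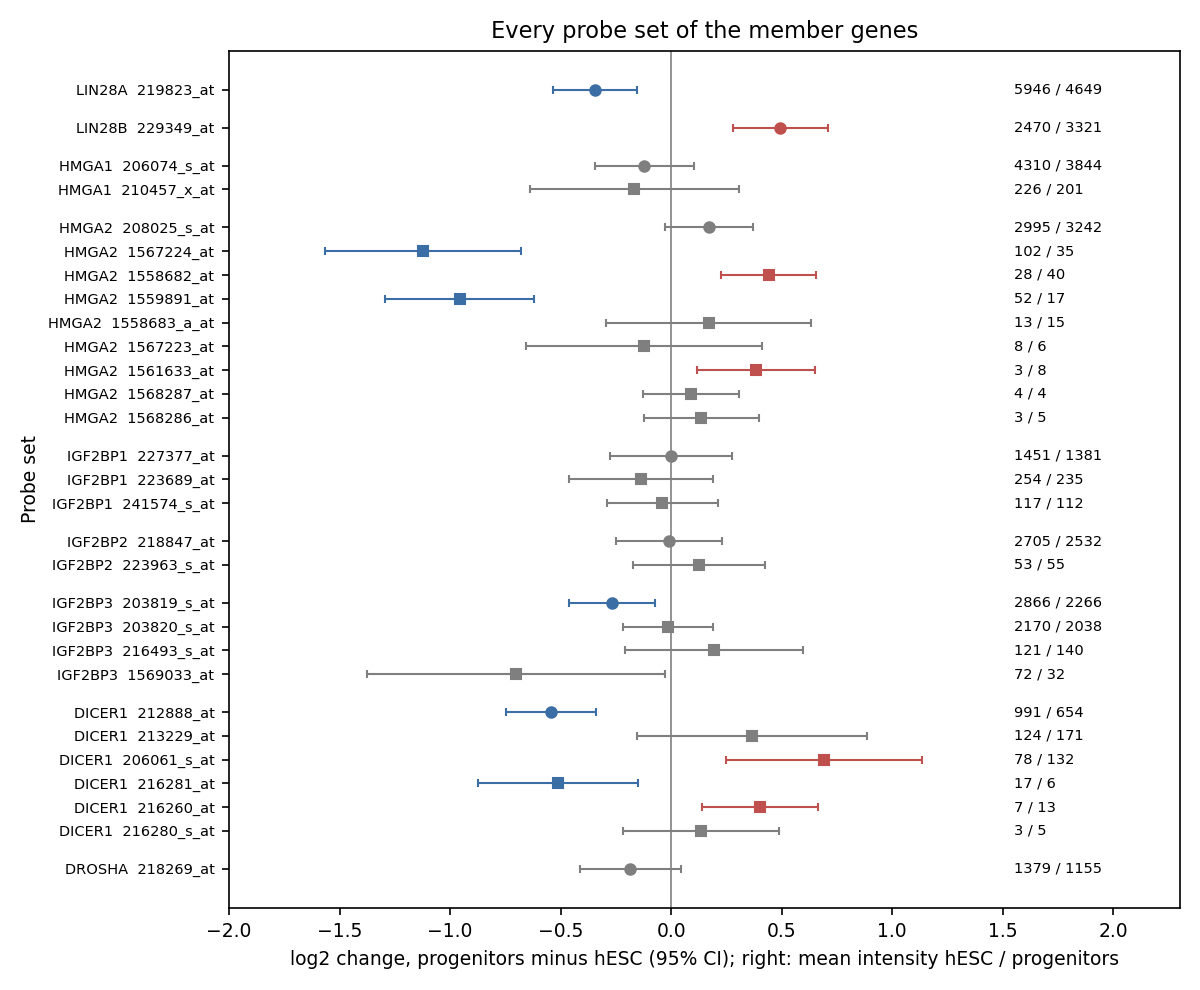
Log2 change, progenitors minus hESC, of all 29 probe sets with 95% intervals; circles are the brightest probe set of a gene, and red, blue and grey stand for higher, lower and not past the test over all probe sets. Of the 29, 5 were higher and 6 lower (14 and 2 with hybridization-control scaling, 1 and 9 with centring on the gene median). DICER1 and HMGA2 have called probe sets on both sides of 0. IGF2BP2 and IGF2BP3 also have probe sets on both sides, but without calls on both. Of all 54613 probe sets 20.3% were higher and 20.0% lower under quantile normalization, and shares under the other scalings are not given here.

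Tested singly, 5 of the 29 probe sets were higher and 6 lower, where 40.2% of all 54613 probe sets were called, 20.3% higher and 20.0% lower. The split was 14 higher and 2 lower with hybridization-control scaling, and 1 higher and 9 lower with centring on the gene median. The shares of all probe sets under those scalings are not given here. Over genes, 81.9% of those called were higher with hybridization-control scaling and 37.3% with that centring. The groups did not overlap for 14 of the 29, against 51.2% of all probe sets. Among the 17 that reached a mean intensity of 100 in either group, 2 were higher and 4 lower. The 2 higher were those of LIN28B and the second of DICER1. The 4 lower were those of LIN28A, HMGA2 (the dim one at -1.12), IGF2BP3 and DICER1. The share called among all probe sets that bright is not given here, so these counts have no like comparison.

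Directions of changes this small depended on the scaling of the arrays. Under quantile normalization the median change of all genes was 0.04. After centring every array on its own gene median it was -0.15, and 0.32 when each was scaled on its bioB, bioC and bioD hybridization controls. The share of called genes that were higher was 55.8%, 37.3% and 81.9% under these 3 scalings. LIN28B was higher under all of them, by 0.49, 0.28 and 0.95, and was called each time, with an adjusted p of 0.0478 under centring on the gene median. Tested over all probe sets, it was not called under that centring (adjusted p = 0.0660 with limma). With hybridization-control scaling LIN28A turned to 0.17 and IGF2BP3 to 0.19, neither called, and DICER1 was at -0.07 without a call. HMGA1, HMGA2, IGF2BP1 and IGF2BP2 were then called higher, at 0.36, 0.64, 0.44 and 0.44. With centring on the gene median HMGA1 and DROSHA were called lower, at -0.31 and -0.40. Relative to the median of all genes under the same scaling, LIN28A was at -0.39, -0.35 and -0.15, LIN28B at 0.45, 0.43 and 0.63, and DICER1 at -0.58, -0.59 and -0.39. Subtracting the median removes a part of what a scaling adds, and a part stays, so these values are no check of the scaling.

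**Figure D3:**
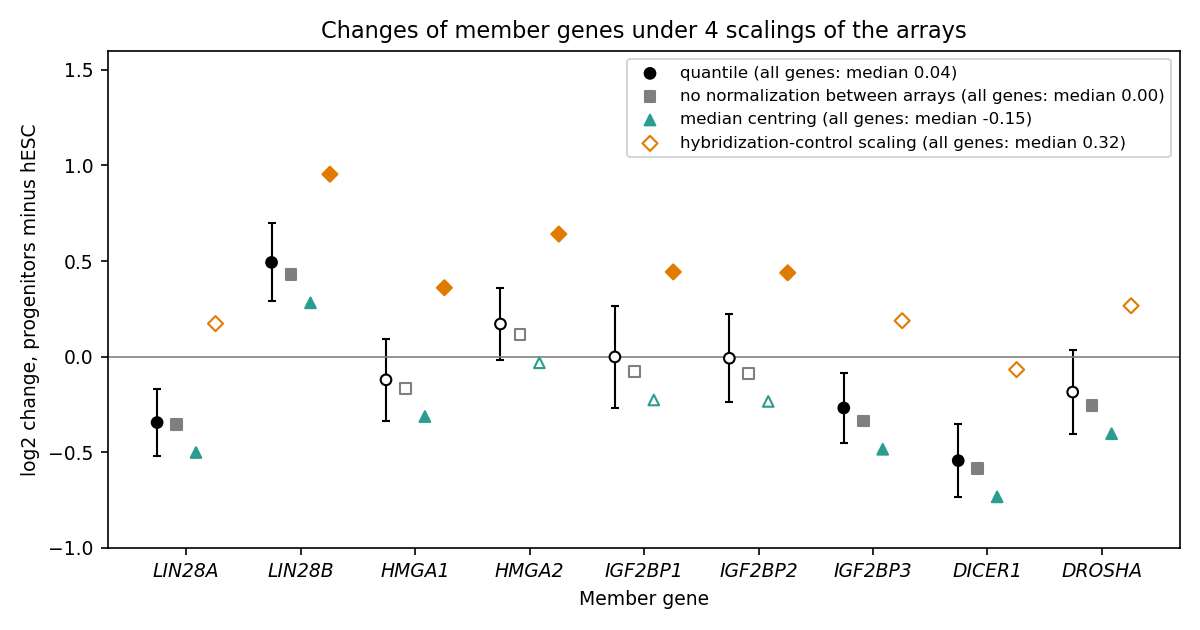
Log2 change of each gene under 4 scalings of the arrays; filled symbols passed at an adjusted p under 0.05, open ones did not, and bars are 95% intervals of the quantile-normalized values. LIN28B is above 0 under all 4, and hybridization-control scaling moves every gene upward, LIN28A to 0.17.

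Progenitor array 1 stood apart from the other 2 for some genes. IGF2BP1 was higher there by 0.33 and DROSHA lower by 0.22, where progenitor arrays 2 and 3 differed by 0.05 and 0.02. For LIN28A, LIN28B, HMGA2, IGF2BP2, IGF2BP3 and DICER1 the gap of array 1 was at most 0.06. All 10 endothelial and blood markers were higher on that array than the mean of the other 2, by a median of 1.94, PECAM1 with 49.6 against 42.6 and 51.5. Their summed intensity ran from 2263 to 7770.5 over the progenitor arrays and from 814 to 905 in hESC, and CDH5 stood at 1012 against 102 and 121. The part of such cells in the IGF2BP1 and DROSHA values was not tested. Of 7 endoderm markers 4 were higher on array 1, and of 8 neuroectoderm markers also 4. The median gap of array 1 was 0.02 over the endoderm markers and 0.33 over the neuroectoderm markers. Summed neuroectoderm intensity ran from 2009 to 4072 over the progenitor arrays and from 2110 to 2262.5 in hESC. Summed endoderm intensity was 110 to 146 in hESC and 244 to 342 in the progenitors, with TTR near the floor in both groups.

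The partners of these enzymes were taken from a list of 30 genes of microRNA processing, silencing and decay. All 30 were measured, with 6 higher, 10 lower and 14 not past the test, and a median change of -0.09. Over all genes 26.7% were higher and 21.2% lower, with a median of 0.04. The largest increase was that of AGO4, an Argonaute protein that holds the mature microRNA, with mean intensities of 224 in hESC and 618 in the progenitors. It rose by 1.39 (SE 0.08, adjusted p = 1.08e-05 with limma), and 3 of its 4 probe sets were called higher. XRN1, the exonuclease that degrades silenced messenger RNAs, rose by 1.18, and all 4 of its probe sets were called higher. TNRC6A, a GW182 protein that links Argonaute to the silencing machinery, had the largest decrease, from a mean intensity of 1876 to 785, a change of -1.17 (SE 0.08, adjusted p = 2.28e-05), with all 6 of its probe sets lower. RAN, the GTPase that drives nuclear export, was the brightest that did not pass, at -0.17. It turned to 0.34 with hybridization-control scaling. RAN was called lower with centring on the gene median (-0.34), a pseudocount of 64, the dimmest 50% of genes left out, trend and robust variances, or array weights.

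Chosen after their values were seen, the remaining Argonaute and GW182 genes did not move as 1 group. AGO1 fell (-0.98), AGO3 rose (0.52) and AGO2, the Argonaute that can cut its target, did not pass (0.14), but passed with hybridization-control scaling (0.65). TNRC6B and TNRC6C fell, at -0.84 and -0.74, but were not called with hybridization-control scaling (-0.32 and -0.21). Their probe sets were split: 2 of 7 were called lower for TNRC6B and 4 of 7 for TNRC6C, and the rest did not pass. AGO1, AGO3, AGO4, XRN1 and TNRC6A kept their direction and call under all 3 scalings. XPO5, which exports the precursor, fell (-0.79) and was not called with hybridization-control scaling (-0.33, adjusted p = 0.0567). DIS3L2, the exonuclease that degrades uridylated pre-let-7, fell by 0.99 from a mean of 121 to 50.6. Probe sets called lower were 3 of 4 for AGO1, 2 of 3 for XPO5 and 3 of 4 for DIS3L2. For AGO3, 3 of 4 were called higher. TUT4, which uridylates pre-let-7 together with LIN28A, did not pass, at 0.01, nor did TUT7, at 0.22, though both passed with hybridization-control scaling (0.50 and 0.77). With hybridization-control scaling the list had 17 higher and 3 lower, and with centring on the gene median 5 higher and 16 lower. Over all 19775 genes 11093 were called with that scaling, 81.9% of them higher, and 10262 with that centring, 37.3% of them higher.

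Other genes known as let-7 targets were taken from a list of 27, of which 24 were measured. Of these 9 rose, 7 fell and 8 did not pass, with a median change of 0.11, where 26.7% of all genes were higher and 21.2% lower. PRTG, the cell adhesion receptor protogenin, had the largest increase, with mean intensities of 117 (hESC) and 6301 (progenitors). It rose by 5.57 (SE 0.11, adjusted p = 1.44e-07 with limma), and its 3 probe sets were all higher. CDK6, a kinase that drives entry into S phase, rose by 1.93, with 5 of its 7 probe sets higher, and ARID3A, an AT-rich DNA-binding factor, by 1.50, with both probe sets higher. MYCN, a MYC family factor, fell most, from a mean of 2723 to 942, a change of -1.45. This fall was read from 1 probe set, since the other 9 had mean intensities of at most 16.99 in either group and could not show it. For that reason the value without _s_at, _x_at or _a_at probe sets, 0.01, says nothing about it. CCND2, a D-type cyclin, was the brightest that did not pass, at 0.16 and -0.06 with centring on the gene median. It was called higher with hybridization-control scaling (0.61), trend and robust variances, or array weights. TRIM71 (LIN41), the classic let-7 target of the worm, was chosen after its value was seen and fell by 0.63, which was not called with hybridization-control scaling (-0.14). The list had 15 higher and 2 lower with that scaling, and 7 higher and 9 lower with centring on the gene median. Over all 19775 genes 11093 were called with that scaling, 81.9% of them higher, and 10262 with that centring, 37.3% of them higher.

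Long transcripts that span let-7 hairpins were measured for 6 of 7 listed genes, of which 1 rose and 1 fell (4 and 0 with hybridization-control scaling, 0 and 2 with centring on the gene median), where 26.7% of all genes were higher and 21.2% lower. Their level is not that of the microRNA. Of all 19775 genes 11093 were called with hybridization-control scaling, 81.9% of them higher. With centring on the gene median 10262 were called, 37.3% of them higher. MIRLET7BHG, which spans let-7a-3 and let-7b, had intensities of 66.1, 63.6 and 77.8 in hESC and 42.3, 40.0 and 35.2 in the progenitors. All progenitor arrays were lower, and the change was -0.54 (SE 0.11, adjusted p = 0.00624 with limma). It was not called with hybridization-control scaling (-0.23) or on the mean of its 2 probe sets (-0.33). SPACA6, which spans let-7e, rose by 0.71 (adjusted p = 0.0343), from intensities of 101, 103 and 78.4 to 107, 202 and 196. Progenitor array 1 was close to the hESC arrays. The call was lost without each hESC array in turn (0.75, 0.77 and 0.62) and without progenitor array 2 (0.56) or 3 (0.57). The sign turned when suffixed probe sets were left out (-0.35). That value is from a dim probe set, with means of 14.0 in hESC and 6.73 in the progenitors. MIR100HG (let-7a-2), MIR99AHG (let-7c), HUWE1 (miR-98 and let-7f-2) and WDR82 (let-7g) did not pass, at -0.24, 0.28, 0.02 and 0.10. HUWE1 and WDR82 turned to -0.11 and -0.12 with centring on the gene median, and were called higher with hybridization-control scaling (0.57 and 0.55). MIR100HG was at means of 13.2 in hESC and 7.60 in the progenitors. MIR99AHG passed without hESC array 1 (0.41, adjusted p = 0.0336) and with hybridization-control scaling (0.56), and was at -0.27 without suffixed probe sets. MIR100HG passed with centring on the gene median (-0.44). HUWE1 is a large ubiquitin ligase gene, and 2 of its 5 probe sets were lower. HUWE1 was called lower when its probe sets were averaged (-0.54) and when suffixed ones were left out (-1.78). The value of -1.78 is from a far dimmer probe set, with means of 176 in hESC and 38.4 in the progenitors. Its brightest probe set, at means of 8990 and 9238, was the one at 0.02.

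**Figure D4:**
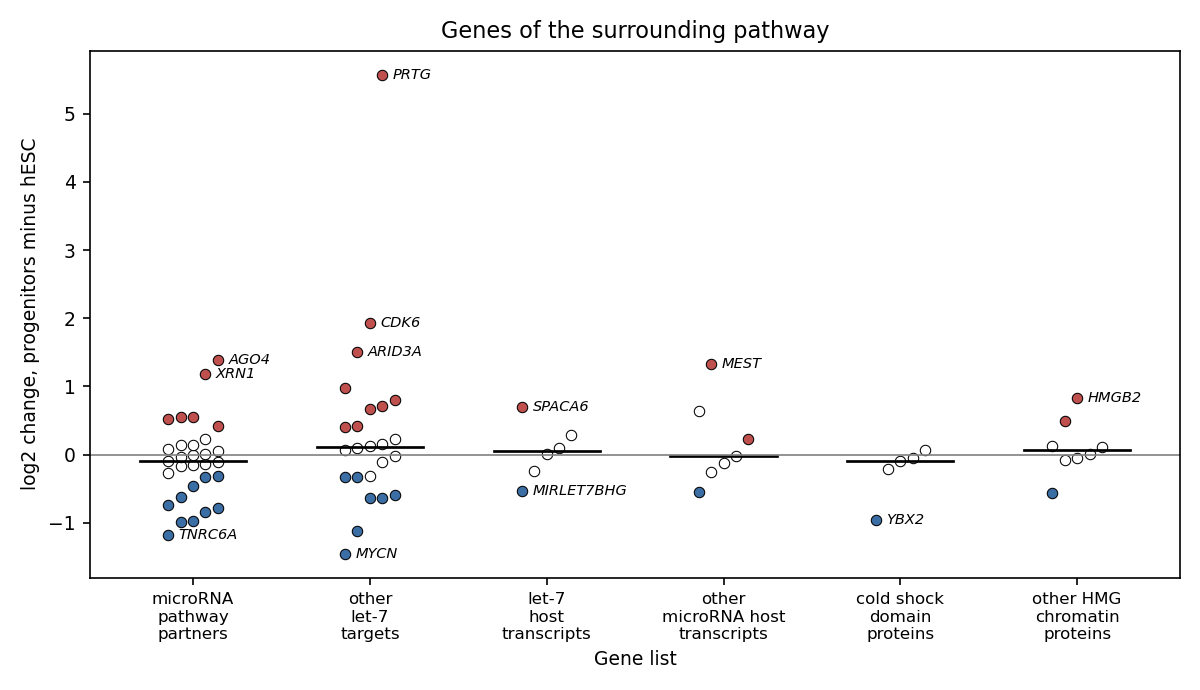
Log2 change after quantile normalization of each measured gene in 6 lists around LIN28 and microRNA processing; red, blue and white points are higher, lower and not past the test, and lines are list medians. PRTG, at 5.57, stands far above the other let-7 targets, and the partner list reaches from TNRC6A at -1.17 to AGO4 at 1.39.

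Relatives of these proteins were tested in the same way. Of 5 measured cold shock domain genes besides LIN28, 1 fell and 4 did not pass, where 26.7% of all genes were higher and 21.2% lower. There were 2 higher and 1 lower with hybridization-control scaling, and 0 and 3 with centring on the gene median. Over all 19775 genes 11093 were called with that scaling, 81.9% of them higher, and 10262 with that centring, 37.3% of them higher. The germ cell factor YBX2 fell by 0.96 from a mean intensity of 191 to 90.4, and YBX1, its abundant relative, did not pass (-0.05, turning to 0.52 and a call with hybridization-control scaling). Of 8 other high mobility group genes 2 rose, 1 fell and 5 did not pass, where 26.7% of all genes were higher and 21.2% lower. With hybridization-control scaling 6 were higher and 0 lower, and with centring on the gene median 1 and 1. Here too the numbers of all genes called under those scalings apply, 11093 and 10262, with 81.9% and 37.3% of them higher. HMGB2, a DNA-bending protein of dividing cells, rose by 0.83, from intensities of 2961 to 3024 in hESC to 5032 to 5301 in the progenitors, while its other, dim probe set fell (-0.42). HMGN4 rose by 0.50 and HMGN5 fell by 0.56, both nucleosome-binding proteins, and HMGB1 did not pass (0.01). HMGN5 was not called with hybridization-control scaling (-0.04), where HMGB1 was called higher (0.56). On the mean of its probe sets HMGN5 was not called either (-0.16). Its other, dim probe set, at means of 18.2 in hESC and 21.6 in the progenitors, was at 0.24 and did not pass. With centring on the gene median HMGB1 was at -0.11 and HMGN4 was not called (0.28). HMGB2 was not called on the mean of its probe sets (0.20). HMGN4 was not called without hESC array 1 (0.50) or 2 (0.39), or without progenitor array 2 (0.45) or 3 (0.46).

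Among 7 measured host genes of other microRNAs, 2 rose, 1 fell and 4 did not pass, where 26.7% of all genes were higher and 21.2% lower. With hybridization-control scaling 3 were higher and 0 lower, and with centring on the gene median 1 and 2. Over all 19775 genes 11093 were called with that scaling, 81.9% of them higher, and 10262 with that centring, 37.3% of them higher. MEST, an imprinted gene that hosts miR-335, rose by 1.33, from a mean intensity of 2116 to 5191. MCM7, a replication helicase subunit that hosts the miR-106b cluster, fell by 0.54 and was not called with hybridization-control scaling (-0.10). SMC4, a condensin subunit that hosts miR-15b, rose by 0.24, and this call was lost without hESC array 1 (0.25) or 3 (0.21), or without progenitor array 2 (0.23) or 3 (0.22). With centring on the gene median SMC4 was at 0.01. Its 3 probe sets disagreed, 1 of them falling from a mean of 268 to 105 (-1.22, adjusted p = 0.00242 with limma over all probe sets), and their mean was at -0.17 and did not pass. MIR210HG did not pass, at -0.25 (0.05 with hybridization-control scaling), and passed without hESC array 3 (-0.37, adjusted p = 0.0292). It was also called lower with centring on the gene median (-0.50, adjusted p = 0.0168 with limma) and with array weights (-0.34, adjusted p = 0.0122).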

How the data were processed

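Per the labels' protocols, RNA was extracted with a silica-column micro kit, and biotinylated cRNA was made in an amplification step. The authors' deposited values are intensities on a linear scale, with 2.15% of them at exactly 1, which looks like a floor, and 19 below it. For probe summarisation, background correction and scaling, the method is not given in the sources used here. The table held 54675 probe sets, 41097 of them annotated to 1 symbol, 1801 to several and 11777 unlisted. The 62 array controls were left out of tests. Symbols were updated through gene identifiers.

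From the deposited intensities, log2(intensity + 16) was computed and quantile-normalized over all probe sets, since array medians spanned 0.1495, above a limit of 0.1. Tests used lmFit and eBayes of limma 3.58.1 (R 4.3.3), two-sided, 3 arrays against 3 without covariates. The test was tested on simulated data. There 30% of 50 genes changed by a log2 size of 0.5 were called, 76% at a size of 1.0, and 8 of 19575 unchanged genes. A gene that did not pass may thus still have changed by a small amount. Far fewer genes changed in the simulation than were called in the data, so these shares need not hold there. The number of arrays limits the precision. Figures used matplotlib 3.10.9 under Python 3.11.15.

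The members and lists were chosen with earlier results of these data known. Named were all members and, of each pathway list, the 3 largest changes past the threshold, the largest opposite one and the brightest that did not pass. All let-7 host genes, the sort antigens and the 3 genes most like LIN28A and LIN28B were named too. Alternatives covered 3 other scalings, pseudocounts of 1 and 64, filters of 30% and 50%, probe-set choice, variance models, array weights, a replicate block, an adjusted p under 0.01, averaging and leaving out arrays. Same-numbered arrays did not deviate together, so the test had no block.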

Additional observations from a re-analysis of the deposited data

How the results depend on the processing

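The 3 arrays in each group limit the precision of changes this small. LIN28B kept its direction and call in all 20 alternatives tested over genes (0.28 to 0.95) and LIN28A in 19. Tested over probe sets with centring on the gene median, LIN28B was not called (adjusted p = 0.0660 with limma). Members lower numbered 5 with centring on the gene median, 0 with hybridization-control scaling and 1 on the mean of probe sets, against 3. They numbered 4 with array weights or without normalization between arrays. Members higher numbered 5 with hybridization-control scaling and 2 with a pseudocount of 64, trend and robust variances or array weights, against 1. The number of all genes called moved too, from 9463 to 10262 with that centring (37.3% of them higher). It was 11093 with hybridization-control scaling (81.9% higher) and 12561 with array weights. On the mean of probe sets it was 9154, with a pseudocount of 64 9530, with trend and robust variances 9762 and without normalization 9487. Signs turned with hybridization-control scaling for LIN28A (0.17), HMGA1 (0.36), IGF2BP1 (0.44), IGF2BP2 (0.44), IGF2BP3 (0.19) and DROSHA (0.27). They turned with centring on the gene median for HMGA2 (-0.032), on the mean of probe sets for HMGA2 (-0.090), IGF2BP2 (0.058) and DICER1 (0.089), and without suffixed probe sets for HMGA2 (-1.12). Averaging progenitor arrays 2 and 3 turned IGF2BP1 (0.054). Single probe sets opposed the brightest one for HMGA2 (-1.12, -0.96, -0.12), DICER1 (0.69, 0.40, 0.37, 0.13), IGF2BP2 (0.13) and IGF2BP3 (0.20). Leaving out 1 array moved IGF2BP1 between -0.11 and 0.066 and IGF2BP2 between -0.097 and 0.042, the count of genes between 7905 and 9338, and members lower between 2 and 3. The cause of these shifts was not tested. The replicate numbers did not pair the samples: deviations of same-numbered arrays had correlations of -0.02, 0.03 and -0.04 across 19775 genes, which are not independent replicates. With the replicate block 8880 genes passed, with 1 member higher and 2 lower, and IGF2BP3 was not called (-0.27, adjusted p = 0.0761 with limma).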
